A study of Mus musculus with 4 samples.

Results

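Acute-phase and alarmin genes were followed as a group of 8 genes, Saa1, Saa2, Saa3, Lcn2, Hp, Ptx3, S100a8 and S100a9, across stromal and myeloid cells of gonadal white adipose tissue (gWAT). The members were taken by gene symbol, 8 of the 31054 features in the count tables, and each symbol matched 1 feature. Cells came from the stromal vascular fraction (SVF) of 18-month-old male p16-CreERT2/R26-LSL-tdTomato mice, all of which had received tamoxifen. Tamoxifen frees a Cre recombinase driven by the p16 (Cdkn2a) promoter, which switches on the red fluorescent protein tdTomato, so Tom+ stands for cells whose p16 promoter had been active and Tom- for the others. Liberase was used to digest the tissue, and the sort was on tdTomato and on CD45, which leukocytes carry on their surface. Of the 4 libraries, values are given first for the Tom+ and then the Tom- library labelled CD45-, and next for the Tom+ and then the Tom- library labelled CD45+. The reporter marks promoter activity during tamoxifen treatment and not p16 protein, and the number of animals pooled per library is not given in the sources used here. With 1 library per group there is no replicate check, and differences are between libraries, not conditions.

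The acute-phase response is a programme of secreted proteins that tissues raise in infection and injury, driven mainly by interleukin-6 through STAT3 and by interleukin-1 and tumour necrosis factor through NF-kB, with the C/EBP factors. Serum amyloid A (SAA) proteins are small apolipoproteins. Saa1 and Saa2 are made chiefly by the liver, whereas Saa3 is the form made outside it, including in adipose tissue and macrophages. Lcn2 encodes lipocalin-2, which withholds iron from bacteria by binding siderophores. Hp encodes haptoglobin, which binds free haemoglobin. Ptx3 encodes a long pentraxin that recognises microbes and damaged cells. S100a8 and S100a9 encode the subunits of calprotectin, an alarmin stored in the cytosol of neutrophils and monocytes.

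On the mm10 build, the SAA genes lie close together, Saa3 at chr7:46711998-46715700 (minus strand), Saa1 at chr7:46740497-46742980 (minus strand) and Saa2 at chr7:46751790-46754313 (plus strand). S100a8 (chr3:90668978-90670035, plus strand) and S100a9 (chr3:90692632-90695721, minus strand) are also neighbours, and Ptx3 is on the same chromosome at chr3:66219910-66225805 (plus strand). Lcn2 lies at chr2:32384633-32388252 (minus strand) and Hp at chr8:109575128-109579172 (minus strand). All 8 are annotated as protein-coding. Their identifiers are ENSMUSG00000074115 (Saa1), ENSMUSG00000057465 (Saa2), ENSMUSG00000040026 (Saa3), ENSMUSG00000026822 (Lcn2), ENSMUSG00000031722 (Hp), ENSMUSG00000027832 (Ptx3), ENSMUSG00000056054 (S100a8) and ENSMUSG00000056071 (S100a9). Reads are counted near the 3′ end of transcripts, and of the 31-base words in the last 400 bases of the Saa1 transcript, 19.2% also occur in Saa2 and 0% in Saa3. Of such words in the last 400 bases of Saa3, 7.57% occur in Saa1 and 2.97% in Saa2. Reads from stretches shared by Saa1 and Saa2 cannot be told apart, so the counts of both are uncertain. The smaller shared part of Saa3 carries the same limit.

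RefSeq promoter windows (GRCm38.p6, 250 bases before to 50 after the start site, 300 in all) were found for 7 of the 8 members, all but Hp. Those of Saa1, Saa3 and Lcn2 are printed because Saa3 and Lcn2 were found in the same progenitor-like cells, whereas Saa1, a neighbour of Saa3, was nearly absent. Each runs 5′ to 3′ on the gene's strand, and capitals mark matches on either strand to TTGCNNAA (C/EBP), TTCNNNGAA (STAT), the NF-kB motif searched, which is GGG followed after any 5 bases by CC, or the TATA box searched, which is TATAAA. The windows are chr7:46742931-46743230 (Saa1), chr7:46715627-46715926 (Saa3) and chr2:32387690-32387989 (Lcn2), all on the minus strand.
Saa1: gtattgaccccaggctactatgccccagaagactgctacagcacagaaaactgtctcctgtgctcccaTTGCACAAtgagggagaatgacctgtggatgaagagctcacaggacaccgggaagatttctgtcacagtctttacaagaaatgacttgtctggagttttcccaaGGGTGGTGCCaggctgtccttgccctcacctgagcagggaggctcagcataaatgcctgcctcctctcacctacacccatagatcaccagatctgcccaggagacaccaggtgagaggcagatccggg
Saa3: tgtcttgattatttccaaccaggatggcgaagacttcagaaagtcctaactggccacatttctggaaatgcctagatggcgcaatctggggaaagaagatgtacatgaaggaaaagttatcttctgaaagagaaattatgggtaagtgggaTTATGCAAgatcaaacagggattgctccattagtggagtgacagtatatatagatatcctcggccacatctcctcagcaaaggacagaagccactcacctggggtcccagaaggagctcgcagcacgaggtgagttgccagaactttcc
Lcn2: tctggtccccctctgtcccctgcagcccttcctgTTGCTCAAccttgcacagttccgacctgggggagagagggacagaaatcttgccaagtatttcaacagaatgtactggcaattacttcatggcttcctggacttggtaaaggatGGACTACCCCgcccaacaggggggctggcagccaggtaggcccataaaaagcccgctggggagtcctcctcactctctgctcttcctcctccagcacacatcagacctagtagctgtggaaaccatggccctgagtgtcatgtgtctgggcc
The C/EBP letters occurred in 6 of the 7 windows, all but that of S100a8, and in 10.8% of 32851 promoters of the same length. In Saa3 they began 99 bases before the start site, as TTATGCAA, which is the motif read on the opposite strand. In Saa1 they began 182 bases before it as TTGCACAA, and in Lcn2 216 bases before it as TTGCTCAA. The NF-kB letters occurred in Saa1, Saa2, Lcn2 and Ptx3, where 2 matches overlapped, and in 50.8% of all promoters. The STAT letters were found in none of the 7 windows and in 8.30% of promoters, and the TATA letters in S100a8 and S100a9 and in 13.6%. The TATA letters began 30 bases before the start site in S100a8, but at the start site itself in S100a9 and so not before it. A match describes the letters and not a bound site.

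The libraries held 3429 to 11255 barcodes and 64083756 to 139397501 unique molecular identifiers (UMIs, each standing for 1 captured transcript). After filtering, 13878 cells remained, 1927 to 4391 per library, with a median of 18331 to 19502 UMIs per cell. The levels of tdTomato followed the labels, at 713 and 715 CPM (UMIs of a gene per 1000000 UMIs) in the Tom+ libraries and 16 and 18.8 CPM in the Tom- libraries. Ptprc, which encodes CD45, did not, at 217, 158, 223 and 188 CPM, and each library held both stromal and leukocyte classes. The libraries labelled CD45- and CD45+ are therefore named by their labels only and treated as parallel pairs. The Tom- libraries shared 4394 barcodes, 39.0% and 39.7% of their barcodes, of which 10 were kept as cells in both.

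Cells were clustered without the members and without the listed genes, and clusters were named from marker genes with the ending -like. Cxcl13 stromal-like cells numbered 179, 250, 74 and 222, and mesothelial-like cells 71, 385, 34 and 405. Progenitor-like cells, with markers of adipose progenitors, numbered 267, 1525, 108 and 1713. Macrophage-like cells numbered 762, 235, 402 and 317, Arg1-high-like cells 196, 368, 103 and 448, and neutrophil-like cells 21, 84, 23 and 123. Monocyte-like cells reached 20 cells in the Tom- libraries alone, with 49 and 60. Dendritic-like cells numbered 38, 86, 14 and 96. The Cxcl13 stromal-like cluster had 3 of 4 of its own markers raised, Cxcl13 at 1247 to 2803 CPM, Cxcl5 and Clca3a2, but Ccl19 was at 0.39 to 4.90 CPM. It also had 10 of 11 mesothelial markers raised, at a summed 1250 to 1555 CPM against 5233 to 6080 CPM in mesothelial-like cells. The Arg1-high-like cluster carried macrophage markers, summed to 4706 to 6087 CPM. All intervals below are 95% intervals, exact Poisson for CPM and exact binomial for shares of cells, and cover counting error only.

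Saa3 was by far the most counted member, with 312524 UMIs in kept cells, and its highest level among the described classes lay in Cxcl13 stromal-like cells. It reached 7511 CPM (7439 to 7584), 8147 (8082 to 8213), 6490 (6392 to 6590) and 10864 (10787 to 10940) there. Of the described classes, mesothelial-like cells followed at 2366 (2296 to 2437), 1650 (1627 to 1674), 1728 (1655 to 1802) and 2570 (2542 to 2599) CPM. The lowest library of the first class was above the highest of the second, so the classes did not overlap in any library. Arg1-high-like cells came next at 841, 497, 747 and 485 CPM, and progenitor-like cells at 311, 403, 410 and 283 CPM, again without overlap between the classes. An unnamed cluster, numbered 24 and led by Ighg3, Spink8 and Crisp1, held Saa3 at 5435 and 2688 CPM in 25 and 56 cells of the Tom+ libraries, above mesothelial-like cells, and had 10 of 11 mesothelial markers raised. Macrophage-like cells held 128, 90.9, 157 and 154 CPM, and neutrophil-like cells 56.3, 81.5, 56.6 and 123 CPM, which overlapped. Monocyte-like cells of the Tom- libraries had 36.0 and 47.8 CPM and dendritic-like cells 11.2 to 29.3 CPM. B cell-like cells, which should lack Saa3, held 30.8, 36.6, 24.1 and 42.1 CPM, so monocyte-like and dendritic-like cells were near or below that background.

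**Figure D1:**
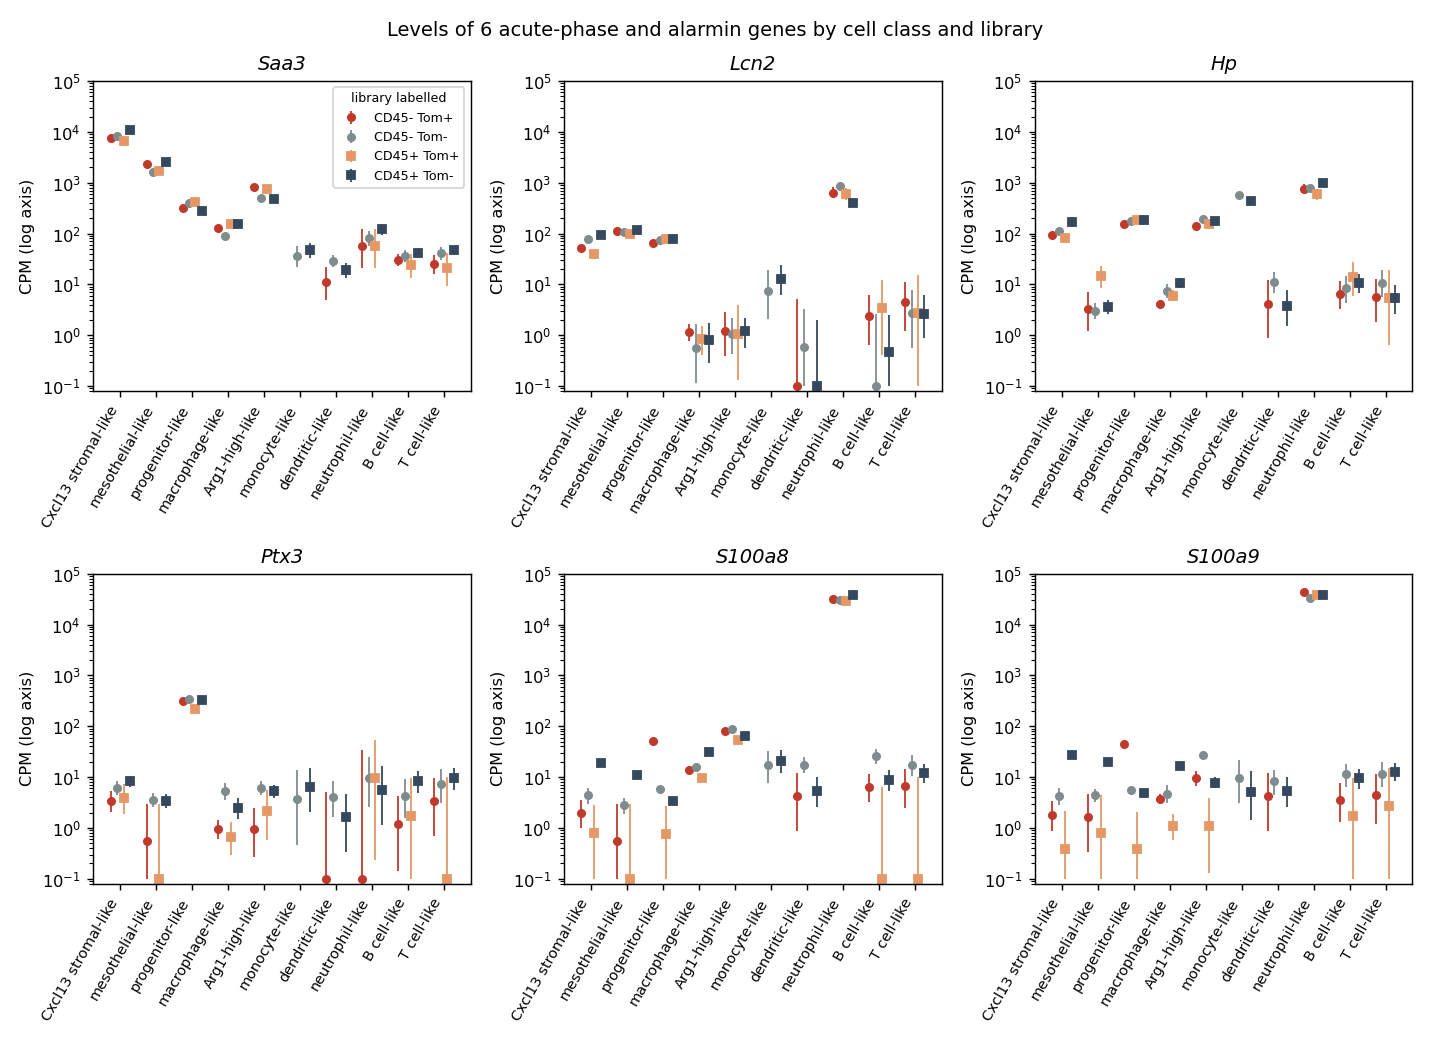
Level of 6 of the members (CPM, log axis, one panel per gene) in 10 classes, with one point per library and 95% Poisson bars. Points at 0.1 stand for levels of 0 or below 0.1. Saa3 was highest in Cxcl13 stromal-like cells, Ptx3 in progenitor-like cells, and S100a8 and S100a9 in neutrophil-like cells, in all 4 libraries.

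Against progenitor-like cells of the same library, Saa3 in Cxcl13 stromal-like cells was 24.1-, 20.2-, 15.8- and 38.3-fold higher, and in mesothelial-like cells 7.6-, 4.10-, 4.21- and 9.07-fold higher. In either class Saa3 was 1 of 8 members at least 2-fold above progenitor-like cells in every library, and no other member was. Of all genes whose mean reached 5 CPM, 5.27% passed the same rule in Cxcl13 stromal-like and 9.82% in mesothelial-like cells. In Arg1-high-like cells Saa3 stood 2.70-, 1.23-, 1.82- and 1.71-fold above progenitor-like cells, which did not meet the rule. This level depended on the clusters: with 4000 variable genes instead of 2000, Saa3 in the cells then named Arg1-high-like was 71.3 to 205 CPM, and at Leiden resolution 2 it was 976 to 1563 CPM.

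Saa3 was spread over most Cxcl13 stromal-like cells but over few progenitor-like cells. After thinning each cell to 2000 UMIs, at least 1 Saa3 UMI was found in 75.9%, 87.7%, 63.5% and 90.7% of Cxcl13 stromal-like cells and in 59.4%, 48.3%, 50.0% and 45.6% of mesothelial-like cells. In progenitor-like cells the thinned share was 7.17%, 12.5%, 9.26% and 10.5%. In B cell-like cells, at a median of 5296 to 6510 UMIs against 21323 to 23480 in progenitor-like cells, it was 8.12%, 7.73%, 5.48% and 9.33%. The share in progenitor-like cells of the first library was thus within background, and that of the last library was only slightly above it. Whether the shares of the later libraries exceeded background was not tested. The level in progenitor-like cells came from few cells, since the 2% of cells with most Saa3 held 83.4%, 63.4%, 77.6% and 70.5% of its UMIs. The same share in Cxcl13 stromal-like cells was 16.6%, 9.98%, 15.9% and 9.46%. A level of at least 10 Saa3 UMIs per 10000 was reached by 68.7%, 80.4%, 59.5% and 85.1% of Cxcl13 stromal-like cells, 42.3%, 30.9%, 32.4% and 31.1% of mesothelial-like cells and 18.9%, 12.0%, 19.4% and 10.9% of Arg1-high-like cells. Of progenitor-like cells 4.12%, 5.97%, 7.41% and 3.97% reached it, and of macrophage-like cells 4.07%, 2.55%, 4.73% and 3.15%. No monocyte-like cell reached it, with upper limits of 7.25% and 5.96%.

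**Figure D2:**
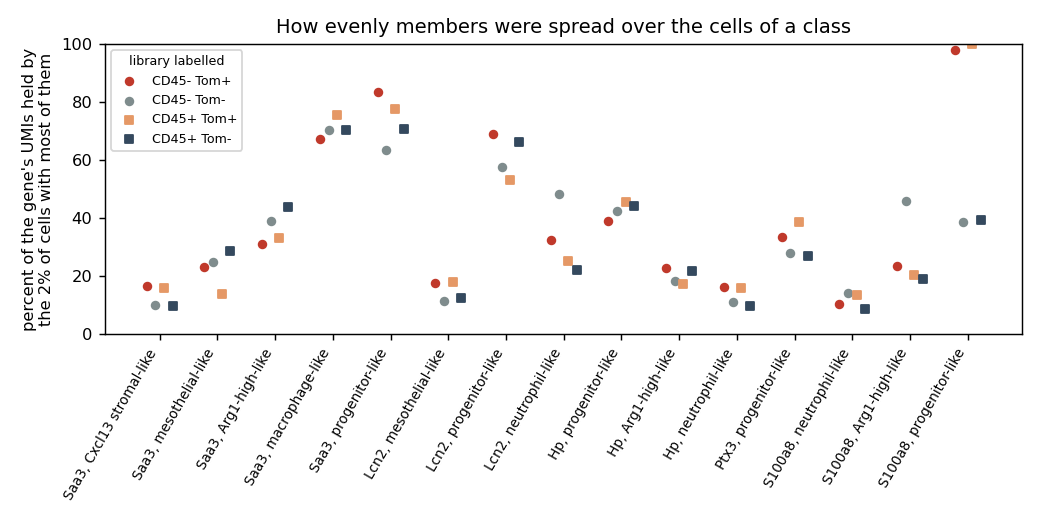
Percent of a member's UMIs that was held by the 2% of cells with most of them (vertical axis), for 15 pairs of gene and class, with one point per library. Low points mean an even spread. Saa3 lay between 9.46% and 16.6% in Cxcl13 stromal-like cells and between 63.4% and 83.4% in progenitor-like cells.

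Saa3 and Cxcl13, a chemokine that attracts B cells, were found in the same Cxcl13 stromal-like cells. After thinning, Cxcl13 was detected in 43.4%, 39.7%, 53.2% and 57.7% of cells with Saa3 and in 4.88%, 3.33%, 3.70% and 15% of those without. In mesothelial-like cells of the library labelled CD45- Tom-, Msln, a mesothelial surface protein gene, was detected in 59.5% of cells with Saa3 and 58.6% of those without. The Tom+ libraries had fewer mesothelial-like cells, and Msln was found less often with Saa3 there. It was in 48.8% of cells with Saa3 and 67.9% without for CD45- Tom+, and in 47.1% and 58.8% for CD45+ Tom+. Cxcl13 was used to name the class, so these shares are a description.

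Inside the progenitor-like class, Saa3, Lcn2, Hp and Ptx3 all stood above their level over the whole class in 1 cluster, numbered 8. It was led by Cpxm2, Sfrp1 and Ptx3 and had Serpina3n and Il6 among its 10 leading genes. It held 35, 294, 19 and 311 cells, and 3 of the 4 Cxcl13 stromal markers were also raised in it. Its Saa3 level was 1439, 1103, 1189 and 831 CPM, against 25.6, 167, 540 and 90.2 CPM in cluster 0, led by Inmt, and 262, 281, 8.30 and 189 CPM in cluster 3, led by Fgf10. Lcn2 was at 374, 258, 323 and 297 CPM in cluster 8 and at 4.98 to 33.7 CPM in clusters 0 and 3, so the clusters did not overlap. Hp stood at 303, 321, 319 and 385 CPM in cluster 8, and Ptx3 at 739, 626, 591 and 585 CPM. Over the whole class they were at 151 to 188 and at 219 to 348 CPM. After thinning, Hp was about as frequent in cluster 3 in the library labelled CD45- Tom+, in 16 of 77 cells against 7 of 35 in cluster 8. In both Tom- libraries it was more frequent in cluster 8, as in 88 of 311 against 67 of 462 cells for CD45+ Tom-. Of the few Saa1 UMIs of the class, 42 and 36 lay in cluster 8 in the Tom- libraries, or 5.53 and 4.03 CPM, and the rest in other clusters. 

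Saa3 and Lcn2 were also found in the same cells within this class. In the library labelled CD45- Tom-, 190 of 1522 thinned progenitor-like cells had Saa3, 88 had Lcn2 and 53 had both, 4.82 times the 11.0 given by the product of the shares. The other Tom- library had 179 and 100 of 1710, and 42 had both, 4.01 times the product. Within cluster 8 alone the ratio was lower, 2.26 and 1.81, with Lcn2 in 47.7% of the cells with Saa3 and 10.1% of those without in the first of these libraries. For Saa3 with Ptx3 it was 1.58 and 1.45 over the class, and for Saa3 with Hp 2.22 and 1.96. In mesothelial-like cells the ratio of Saa3 with Lcn2 was 1.17 and 1.22.

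The macrophage-like class was likewise uneven. Cluster 12, led by Fcna, Vsig4 and Marco, which are genes of tissue-resident macrophages, held Saa3 at 793 (764 to 823), 586 (530 to 647), 992 (946 to 1040) and 897 (844 to 953) CPM. Cluster 4, led by Atp6v0d2 and Gpnmb, had 14, 17.5, 12.5 and 16.5 CPM, and cluster 13 had 9.47, 22.1, 11.2 and 27.1 CPM, both below B cell-like cells of the same library in all 4. With 4000 variable genes, Saa3 in the cells then named macrophage-like was 22.6 to 84.2 CPM. Lcn2 and Ptx3 were at most 5.88 CPM in cluster 12.

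**Figure D3:**
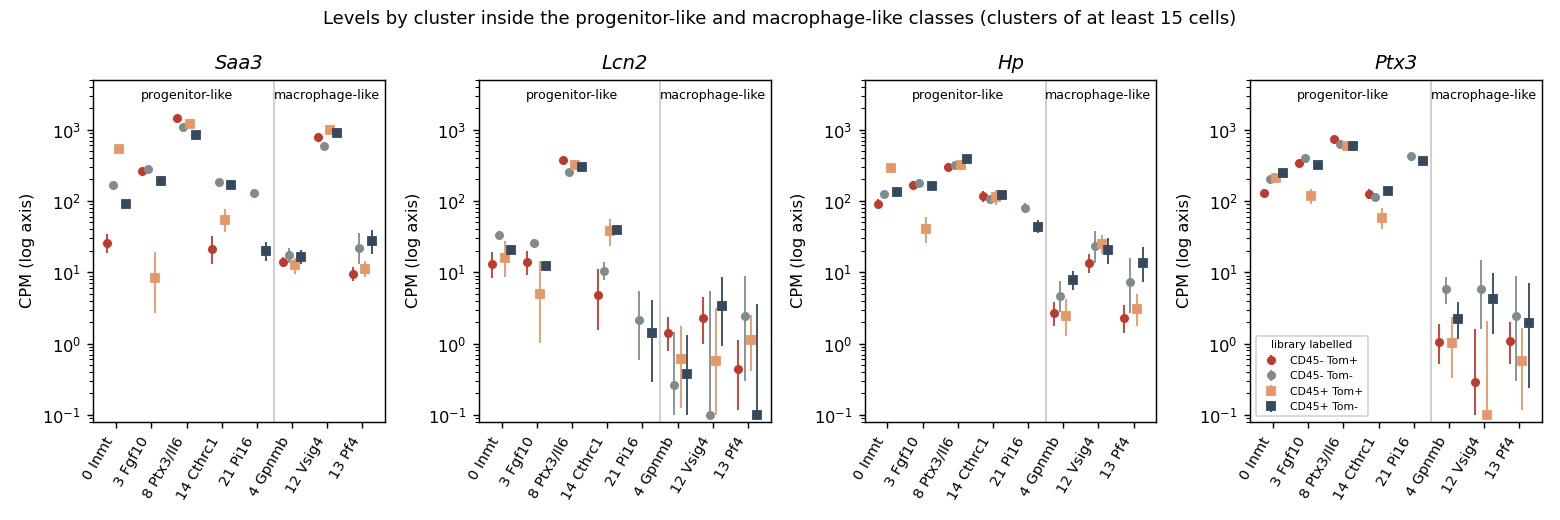
Level of Saa3, Lcn2, Hp and Ptx3 (CPM, log axis) in the clusters that make up the progenitor-like and macrophage-like classes, with one point per library of at least 15 cells and 95% Poisson bars. Points at 0.1 stand for levels of 0 or below 0.1. Cluster 8 was highest for Lcn2 in the progenitor-like class, and cluster 12 for Saa3 in the macrophage-like class, in all 4 libraries.

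Saa1 and Saa2, the liver-type SAA genes, were at or near 0 in the classes described. In kept cells they had 180 and 36 UMIs in all. Saa1 was at 0.49, 2.24, 1.13 and 1.80 CPM in progenitor-like cells, with 3, 78, 3 and 76 UMIs. It was at 0 in macrophage-like and neutrophil-like cells of all 4 libraries, where 3 UMIs would have been 0.13 to 28.3 CPM. Saa2 had 1, 13, 0 and 10 UMIs in progenitor-like cells. In Cxcl13 stromal-like cells, where Saa3 was highest, Saa1 had 2, 0, 1 and 5 UMIs and Saa2 had 0, 1, 0 and 0. Neither passed the filter of 5 CPM in any comparison.

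Lcn2 was highest among the described classes in neutrophil-like cells, at 638 (495 to 808), 865 (778 to 959), 603 (465 to 770) and 396 (345 to 453) CPM. In the library labelled CD45- Tom-, 1 neutrophil-like cell held 152 of 361 Lcn2 UMIs, and without the 2% of cells with most Lcn2 the level there was 466 CPM. Mesothelial-like cells had 115, 105, 99.5 and 119 CPM. Progenitor-like cells had 64.8, 75.5, 77.6 and 78.3 CPM and Cxcl13 stromal-like cells 52.5, 77.6, 39.1 and 93.5 CPM, and these classes overlapped. In macrophage-like and Arg1-high-like cells Lcn2 was at 0.56 to 1.21 CPM, and B cell-like cells, with 4, 0, 2 and 1 UMIs, had 0 to 3.44 CPM.

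Hp had a different pattern, high in neutrophil-like and monocyte-like cells and nearly absent from mesothelial-like cells. Neutrophil-like cells had 759, 803, 594 and 969.5 CPM, and monocyte-like cells of the Tom- libraries 578 (515 to 646) and 436 (390 to 485) CPM. Progenitor-like cells had 151, 176, 184 and 188 CPM, Arg1-high-like cells 140, 196, 155 and 177 CPM, and Cxcl13 stromal-like cells 92.5, 112, 80.2 and 170 CPM, and these 3 classes overlapped. Mesothelial-like cells had 3.25, 3.04, 14.4 and 3.66 CPM and macrophage-like cells 4.10 to 10.5 CPM, against 5.33 to 13.8 CPM in B cell-like and T cell-like cells. The Hp level of Arg1-high-like cells was thus above that of macrophage-like cells in every library, although both carried macrophage markers.

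Ptx3 was at 319 (305 to 334), 348 (342 to 354), 219 (202 to 238) and 329 (323 to 334) CPM in progenitor-like cells, and under 10 CPM in each of the other 7 described classes. Outside these, lymphatic endothelial-like cells of the Tom+ libraries had 267 to 290 CPM, above progenitor-like cells of the library labelled CD45+ Tom+. An unnamed cluster, numbered 23, with 8 of 12 progenitor markers raised, had 169 to 225 CPM in 2 libraries. After thinning, 20.4%, 26.0%, 19.4% and 23.5% of progenitor-like cells had a Ptx3 UMI. In Cxcl13 stromal-like cells it was 3.44, 6.12, 3.91 and 8.27 CPM, and B cell-like and T cell-like cells reached up to 9.60 CPM. Unlike Saa3 and Lcn2, Ptx3 was also high in cluster 21 of the progenitor-like class, led by Pi16, a gene of early progenitors, at 420 and 360 CPM in the Tom- libraries, where Lcn2 was at 2.15 and 1.39 CPM.

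S100a8 and S100a9 were highest in neutrophil-like cells. S100a8 in neutrophil-like cells was at 32560, 31048, 28793 and 38172 CPM, and S100a9 at 44383, 32888, 39038 and 37744 CPM. Neutrophil-like cells were shallow, at a median of 3788 to 4887 UMIs, and both genes were found in at least 96.4% of them after thinning. All 11 of the neutrophil markers were raised in this cluster over the libraries together. Ngp, Camp and Ltf were at 1268, 223 and 252 CPM in the library labelled CD45- Tom-. In the other libraries they were at most 5.53, 9.38 and 18.8 CPM. UMIs of S100a8 per UMI of S100a9 came to 0.73, 0.94, 0.74 and 1.01 in neutrophil-like cells.

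Arg1-high-like cells held S100a8 with little S100a9. S100a8 was at 81.0, 88.1, 53.2 and 63.2 CPM and S100a9 at 9.42, 27.7, 1.08 and 7.76 CPM, so the UMI ratio was 8.59 (6.15 to 12.3), 3.18 (2.69 to 3.78), 49.5 and 8.15 (6.29 to 10.7). The third of these rested on 2 S100a9 UMIs. The ratio in Arg1-high-like cells was above that in neutrophil-like cells in all 4 libraries. The same held in macrophage-like cells, with ratios of 3.67, 3.32, 8.92 and 1.87, where S100a8 was at 9.74 to 30.7 CPM. A ratio above that of neutrophil-like cells was thus not particular to Arg1-high-like cells. In the library labelled CD45- Tom-, 1 Arg1-high-like cell held 101 of 180 S100a9 UMIs, and the ratio without the 2% of cells with most S100a9 was 14.1. S100a8 was detected in 13.8%, 9.78%, 8.74% and 10.5% of these cells after thinning, and 8 or more of 11 neutrophil markers were detected in 3 of the 4 libraries, at a summed 121 to 145 CPM in all 4. Their part in the S100a8 level was not tested.

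In the stromal classes, single cells held most of the S100 UMIs in some libraries. In progenitor-like cells of the library labelled CD45- Tom+, S100a8 was at 51.6 and S100a9 at 45.3 CPM, but 1 cell held 296 of 313 and 263 of 275 UMIs. Without the 2% of cells with most of each gene the levels were 1.19 and 0.68 CPM. In Cxcl13 stromal-like cells of the library labelled CD45+ Tom-, 1 cell held 104 of 135 S100a8 UMIs and 164 of 193 S100a9 UMIs. In mesothelial-like cells of the same library 1 cell held 69 of 135 and 152 of 240.

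Counted over every library, the number of members at least 2-fold above or below progenitor-like cells differed by class. Cxcl13 stromal-like cells had 1 below, Ptx3 (background over all genes 6.97%), and in mesothelial-like cells 2 were below, Hp and Ptx3 (7.6%). Neutrophil-like cells had 4 above, Lcn2, Hp, S100a8 and S100a9 (8.29%), and 2 below, Saa3 and Ptx3 (11.1%). Monocyte-like cells, in 2 libraries, had 2 above, Hp and S100a8 (16%), and 3 below, Saa3, Lcn2 and Ptx3 (24.3%). S100a8 in monocyte-like cells was only at 17.0 and 20.7 CPM, on 9 and 16 UMIs. B cell-like cells held 0 to 26.1 CPM of S100a8, so that level lay within their range. Macrophage-like cells had 0 above (11.3%) and 3 below, Lcn2, Hp and Ptx3 (19.6%). Arg1-high-like cells had 0 above (14.4%) and 2 below, Lcn2 and Ptx3 (20%). Dendritic-like cells, in 3 libraries, had 0 above (13.4%) and 4 below, Saa3, Lcn2, Hp and Ptx3 (23.0%). In each class 6 of the 8 members passed the filter of 5 CPM.

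The second comparison set Tom+ against Tom- within the pairs labelled CD45- and CD45+, to see whether the members differed with past p16 promoter activity. Cdkn2a itself was at 6.81, 7.09, 7.29 and 7.64 CPM over all cells. It was at 37.3, 27.6, 41.5 and 39.5 CPM in Cxcl13 stromal-like cells, higher in both Tom+ libraries. The same held in mesothelial-like cells, at 3.79, 1.57, 7.22 and 0.98 CPM on 7, 18, 9 and 12 UMIs. Arg1-high-like cells had 6.52, 2.61, 2.69 and 1.19 CPM on 27, 17, 5 and 10 UMIs, also higher in both. Cdkn2a was at 3.62, 5.48, 6.41 and 6.62 CPM in progenitor-like and 4.66, 8.83, 5.20 and 8.67 CPM in macrophage-like cells, lower in both. In the CD45+ pair the Cxcl13 stromal-like and progenitor-like values lay close together, on 106 and 17 Tom+ UMIs. No intervals were taken for Cdkn2a. No member was 2-fold higher or lower in Tom+ cells in both pairs in Cxcl13 stromal-like, mesothelial-like, progenitor-like, macrophage-like, Arg1-high-like or neutrophil-like cells. A fold is given as a log2 ratio of CPM, Tom+ over Tom-, with the CD45- pair first and the exact interval for a ratio of counts.

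The log2 ratio for Saa3 in Cxcl13 stromal-like cells was -0.12 (-0.14 to -0.10) for the first pair, which ranged from -0.24 to 0.17 over 12 other settings, and -0.74 (-0.77 to -0.72) for the second, where every setting gave a value under 0, from -0.85 to -0.35. Lcn2 had -0.56 (-0.77 to -0.36) and -1.26 (-1.57 to -0.95), and Hp -0.28 (-0.44 to -0.12) and -1.08 (-1.30 to -0.87). In the CD45- pair 0 of 3 members tested passed 2-fold (background 1.09% higher and 0.511% lower). In the CD45+ pair 5 of 6 were at least 2-fold lower (1.93%) and 0 higher (1.81%). The 5 were Lcn2, Hp, Ptx3, on 10 against 59 UMIs, and S100a8 and S100a9, on 2 against 135 and 1 against 193 UMIs. The single cell above held most of the S100 counts, and without the 2% of cells with most S100a9 there were 2 against 31 S100a8 and 0 against 21 S100a9 UMIs. After thinning S100a9 was found in 0 of 74 Tom+ and 4 of 216 Tom- cells, too few to call a 2-fold difference. In that class 2 of 11 neutrophil markers were detected in Tom+ and 9 of 11 in Tom- cells, at a summed 38.0 and 47.9 CPM. Without barcodes found in several libraries Lcn2 had -0.10, Hp -0.29 and Ptx3 -0.70 in this pair, all under 2-fold, and Lcn2 had 0.11 and Hp 0.43 in the first pair.

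Mesothelial-like and progenitor-like cells gave opposite signs for Saa3 in the 2 pairs. In mesothelial-like cells its log2 ratio was 0.52 (0.47 to 0.57) and -0.57 (-0.64 to -0.51), and in progenitor-like cells -0.37 (-0.44 to -0.30) and 0.53 (0.44 to 0.62). The direction of the first value in each class changed with the filter on cells: when cells of 500 genes or more with less than 20% mitochondrial UMIs were kept, it was -0.38 in mesothelial-like and 0.17 in progenitor-like cells. Ptx3 in progenitor-like cells had -0.13 (-0.20 to -0.06) and -0.59 (-0.71 to -0.47). Lcn2 had -0.22 and -0.01 and Hp -0.23 and -0.03. In the CD45- pair of this class 2 of 6 members were 2-fold higher, S100a8 and S100a9, both from the single cell above (1.37%), and 0 lower (0.121%), and in the CD45+ pair 0 of 4 passed (1.14% higher, 0.478% lower). In mesothelial-like cells 0 of 2 passed in the CD45- pair (1.27%, 0.775%). In the CD45+ pair Hp was higher, 1.98 (1.10 to 2.80), on 18 against 45 UMIs (2.83%), and 0.05 at Leiden resolution 2. S100a8, with 0 against 135 UMIs and thus at least 4.57-fold lower on a floor of 3 UMIs, and S100a9, with 1 against 240, were lower (1.98%). The single cell above held 69 and 152 of these UMIs, and after thinning S100a9 was found in 0 of 34 Tom+ and 2 of 395 Tom- cells, too few to call a 2-fold difference.

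Among the myeloid classes, Saa3 was higher in Tom+ Arg1-high-like cells of both pairs, with a log2 ratio of 0.76 (0.69 to 0.83) and 0.62 (0.53 to 0.71), under 2-fold. Over the alternative settings it stayed between 0.63 and 0.97 in the first pair and between 0.26 and 0.92 in the second. In Tom+ and Tom- cells of this class, progenitor markers summed to 349 and 709 CPM in the first pair and to 312 and 724 CPM in the second. Mesothelial markers summed to 6.77 and 23.8 and to 8.06 and 18.5 CPM, and Cxcl13 stromal markers to 8.70 and 6.30 and to 6.99 and 15.4 CPM. Plasma cell markers summed to 2158 and 491 and to 2088 and 467 CPM, higher in Tom+ as Saa3 was. The part of these cells in the Saa3 difference was not tested. Hp in Arg1-high-like cells had -0.48 and -0.19. In the CD45- pair S100a9 was lower, -1.55 (-2.09 to -1.05), or 0.20 with marked doublets kept, as 1 of 4 members (0.801%), with 0 higher (1.03%), and in the CD45+ pair 0 of 3 passed (1.19%, 1.92%).

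In macrophage-like cells Saa3 had 0.50 (0.36 to 0.64) and 0.02 (-0.08 to 0.13) and Hp -0.87 and -0.80, while the median over all genes was -0.26 and -0.30. The Saa3 values ran from -1.66 to 1.13 and from -0.94 to 0.91 over the other settings, so their direction was not settled. In the CD45- pair 0 of 3 members passed (1.61%, 1.35%), and in the CD45+ pair S100a8 and S100a9 were lower, 2 of 4 (1.76%), with 0 higher (1.99%). In the Tom- library of that pair 1 macrophage-like cell held 84 of 234 S100a8 UMIs, and 1 held 52 of 125 S100a9 UMIs. The S100a8 ratio was under 2-fold without the 2% of cells with most S100a8, at -0.52, with marked doublets kept, at -0.67, and with the looser filter on cells, at -0.85. In neutrophil-like cells 0 of 5 members passed in the CD45- pair (5.35% higher, 16% lower). In the CD45+ pair Saa3 was lower, on 6 against 67 UMIs, as 1 of 5 (12.9%), with 0 higher (9.4%). Its log2 ratio was -1.13, but -0.54 without the 2% of cells with most Saa3 and -0.996 after thinning, both under 2-fold. S100a9 there had log2 ratios of 0.43 (0.38 to 0.48) and 0.05. In dendritic-like cells, compared in the CD45- pair alone, Saa3, Hp and S100a8 were lower, 3 of 4 (6.46%), on 8 against 50, 3 against 19 and 3 against 30 UMIs, and 0 were higher (4.43%). Members were also lower in B cell-like cells, 2 of 4 (5.67%) and 1 of 3 (7.45%) in the 2 pairs. In T cell-like cells 3 of 5 (7.3%) and 2 of 4 (9.4%) were lower. S100a9 had -1.67 and -2.48 in B cell-like and -1.41 and -2.25 in T cell-like cells. Lower S100a9 in Tom+ cells was thus not particular to the described classes.

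**Figure D4:**
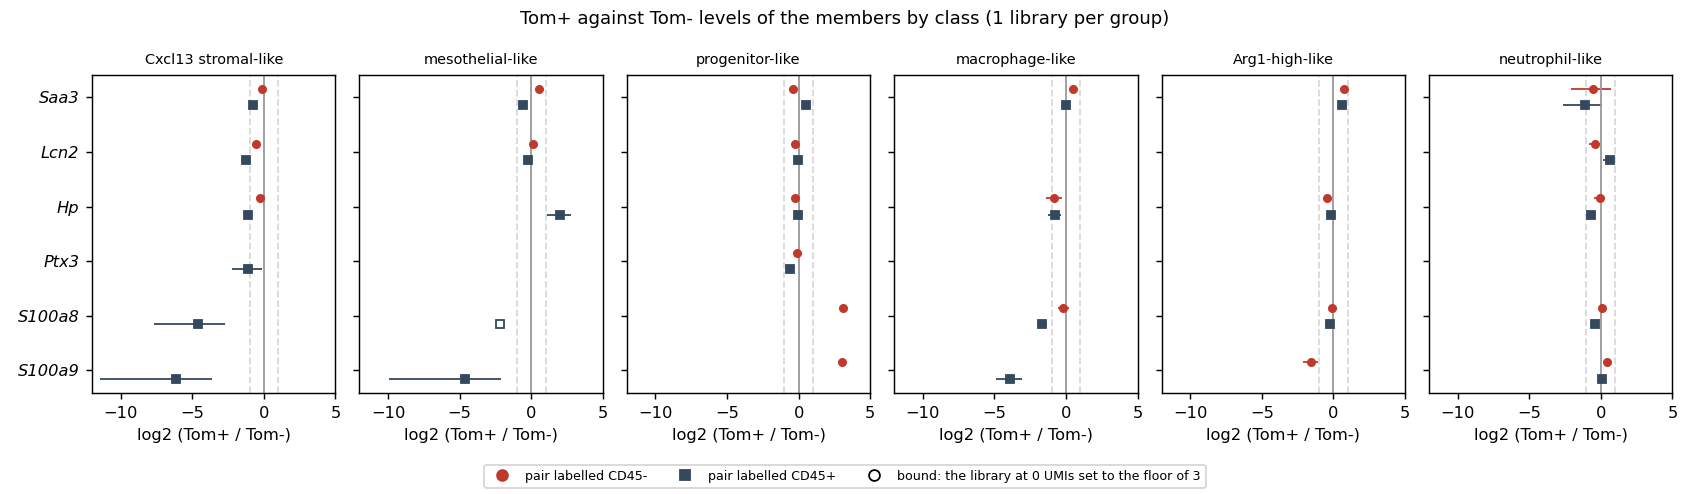
Log2 ratio of Tom+ over Tom- (horizontal axis) of 6 members in 6 classes, circles for the pair labelled CD45- and squares for the pair labelled CD45+, with 95% intervals for counting error. Dashed lines mark 2-fold, and the open symbol is a bound. Most Saa3, Lcn2, Hp and Ptx3 values lie inside the dashed lines.

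The other genes of the response were read from lists of acute-phase genes (24), alarmins (15), inducers (27) and receptors (15). Of acute-phase genes, C3, the central complement component, was the highest in all 3 stromal classes, at 4768 to 6111 CPM in Cxcl13 stromal-like, 9940 to 10942 in mesothelial-like and 5128 to 7194 in progenitor-like cells. Mt1, a metallothionein, and Serping1, the inhibitor of complement C1, followed, and Cd14, the co-receptor for bacterial lipopolysaccharide, was at 995 to 1119 CPM in Arg1-high-like cells. Against progenitor-like cells, 1 acute-phase gene was at least 2-fold above and 5 below in every library in Cxcl13 stromal-like cells, of 11 tested, and the same numbers held in mesothelial-like cells. Over all genes 5.27% were above and 6.97% below in Cxcl13 stromal-like cells, and 9.82% and 7.6% in mesothelial-like cells. In macrophage-like cells 2 were above and 9 below, of 13, beside 11.3% and 19.6% of all genes. Among alarmins, S100a6 led in all 3 stromal classes, at 1415 to 2325, 3882 to 4531 and 2848 to 3820 CPM, and Lgals3, galectin-3, led in macrophage-like cells at 2748 to 4202 CPM.

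Of the inducers, Cebpb, a C/EBP factor, was the highest in all 4 of the Cxcl13 stromal-like, mesothelial-like, progenitor-like and macrophage-like classes, at 921 to 1106, 732 to 788, 1116 to 1415 and 614 to 788 CPM. Nfkbia, which holds NF-kB in the cytoplasm, and Nfkbiz, which acts with NF-kB in the nucleus, followed in the 3 stromal classes. Il1r1, the interleukin-1 receptor, was at 337 to 464 CPM in Cxcl13 stromal-like cells, 193 to 209 CPM in progenitor-like and 32.5 to 67.4 CPM in mesothelial-like cells. Il6 was highest in progenitor-like cells, at 341 to 523 CPM, against 33.3 to 100.4 CPM in Cxcl13 stromal-like and 54.6 to 118 CPM in mesothelial-like cells. Of 20 inducers tested, 1 was above and 4 below progenitor-like cells in Cxcl13 stromal-like cells, and 0 and 6 of 19 in mesothelial-like cells, to be read against the same shares of all genes (5.27% and 6.97%, 9.82% and 7.6%).

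Fpr2, a receptor for SAA proteins, was at 216 to 343 CPM in neutrophil-like and 28.0 to 68.6 CPM in Arg1-high-like cells. Cd163, the scavenger receptor for haptoglobin with haemoglobin, was at 12.6 to 22.4 CPM in macrophage-like cells. Slc22a17, a lipocalin-2 receptor, was at 11.9 to 17.7 CPM in progenitor-like cells, and Lrp2, an endocytic receptor that also takes up lipocalin-2, at 182 to 249 CPM in mesothelial-like cells. Of 10 receptors tested, 1 was above and 2 below progenitor-like cells in Cxcl13 stromal-like cells, and 2 and 2 in mesothelial-like cells, beside those shares.

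Between Tom+ and Tom-, few listed genes passed 2-fold in both pairs. Lgals3 was higher in Tom+ Cxcl13 stromal-like cells, with log2 ratios of 1.15 (1.01 to 1.29) and 1.79 (1.62 to 1.97), from 90.8 to 201 CPM and from 68.9 to 239 CPM. Csf3, which encodes granulocyte colony-stimulating factor, was lower in Tom+ mesothelial-like cells, at -1.73 and -2.88, on 5 against 103 and 3 against 217 UMIs. Serpina3f, a serine protease inhibitor, was higher in Tom+ macrophage-like cells, at 1.47 (0.84 to 2.17) and 3.74 (2.73 to 4.97). C3, at -1.63 and -2.02, Il6, at -2.10 and -1.07, and Serping1, at -1.28 and -1.93, were lower there. Serping1 was lower in Arg1-high-like cells, at -2.25 and -2.68, and in neutrophil-like cells on 1 UMI in each Tom+ library. S100a4 (-1.74 and -2.09) and S100a10 (-1.31 and -1.76), other S100 genes, were also lower in neutrophil-like cells. C3 was lower in B cell-like (-1.81 and -2.14) and T cell-like cells (-2.20 and -2.50) as well. The same held in plasma cell-like (-2.36 and -2.40) and mast cell-like cells (-1.93 and -2.01). Serping1 was past 2-fold lower in both pairs in each of these classes, at -1.80 and -1.84 in B cell-like cells. The C3 and Serping1 differences were thus not particular to the myeloid classes. Serping1 was higher in progenitor-like cells than in the other 2 stromal classes in every library. Progenitor markers in macrophage-like cells summed to 339 and 612, and to 317 and 709 CPM, in Tom+ and Tom- cells. Their part in the C3, Il6 and Serping1 differences was not tested.

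The lists were compared with the median of all genes tested. For Cxcl13 stromal-like cells of the CD45+ pair the 6 members tested had a median log2 ratio of -1.17, against -0.05 over 9729 genes. Of these members, S100a8 and S100a9 rested largely on 1 cell, and Lcn2, Hp and Ptx3 were under 2-fold without shared barcodes. The acute-phase list in progenitor-like cells had medians of -0.33 and -0.44 over 12 and 11 genes, against -0.04 and -0.03 over all genes, with 1 gene at least 2-fold higher in the first pair and 0 in the second, and 0 lower in either. The inducers had -0.17 and -0.08.

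For each member the genes with the most similar levels were taken over 52 sums of class and library with at least 50 cells, which share libraries and depth. For Saa3 these were Tmem119 (Pearson r = 0.892), Myrf (0.888) and Fcor (0.869). For Lcn2 they were Rhobtb3 (0.817), Rhou (0.794) and Serpina3n (0.791), and for Hp Tnfaip2 (0.797), Apoc1 (0.774) and Ace (0.763). Ptx3 had Gdf10 (0.942), Apod (0.903) and Igsf10 (0.883). S100a8 and S100a9 were each other's nearest gene (0.909), followed by Acod1 (0.907) and Csf3r (0.878) for S100a8 and by Retnlg (0.908) and Cxcr2 (0.892) for S100a9. None was named for Saa1 and Saa2, which stayed under 20 CPM.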

How the data were processed

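Single-cell gene expression was measured with 10x Genomics Chromium 3′ libraries sequenced on a DNBSEQ-G400RS. The authors made whole-number UMI counts per gene and barcode by Cell Ranger 3.0.2 (mm10). The deposited count tables are not normalized. Each group was 1 library, so no test, p-value or standard error is given, and the Wilcoxon test over cells used in the study was not applied.

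As in the study, a cell needed more than 1000 but fewer than 7000 genes, and less than 8% of its UMIs mitochondrial. Doublets were scored per library with Scrublet in scanpy 1.11.5, and 0.8% of cells per 1000 barcodes were removed (259, 364, 54 and 427 cells). After scaling to 10000 UMIs per cell and taking logs, cells were clustered on 2000 variable genes, 30 principal components and 15 neighbours with Leiden at resolution 1 (leidenalg 0.10.2, igraph 0.11.9), leaving out the members, the listed genes and tdTomato. A marker counted as raised at 20 CPM and 4 times the median over clusters. The names Cxcl13 stromal-like and Arg1-high-like came first, where at least 3 of their markers were raised and among the 10 top genes. They took precedence over a class with a larger share of its markers raised. Any other cluster took the class with the largest share raised, at least 3 markers, unless markers of another class led its 10 top genes. Of 29 clusters, 25 were named.
UMIs were summed over the cells of a class in a library and divided by all UMIs of those cells (CPM), with exact intervals at 95% (scipy 1.17.1). Classes needed 20 cells. Shares of cells were also taken after thinning to 2000 UMIs, which left out 62 shallower cells. Ratios of Tom+ to Tom- used genes averaging 5 CPM or more and a call at 2-fold. A library at 0 was set to a floor of 3 counts, and such a fold is a bound. Gene positions were taken from GENCODE vM21 (mm10) and promoters from RefSeq (GRCm38.p6).

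Named genes were the 8 members, the up to 4 highest genes of each list in 4 classes, the listed genes past 2-fold in both pairs, and the 3 genes nearest to each member by Pearson r of log2(CPM + 1). Other genes named (Cd14 in Arg1-high-like cells, the Il6 levels, Fpr2, Cd163, Slc22a17, and genes leading a cluster) were chosen after their values were seen. The members and lists were chosen with earlier results of these data known. The computation was tested on simulated data for progenitor-like cells of the libraries labelled CD45-. Of 9867 genes 200 were changed, of which 100% were recovered, and 95.6% of intervals held the true ratio. The counts were drawn from the Poisson model that the intervals assume, with changes larger than the 2-fold call. High recovery and coverage were thus built in, and the result checks the code alone. It says nothing of coverage in the real counts, where single cells held most UMIs of some members.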

Additional observations from a re-analysis of the deposited data

Results flagged for a closer look

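The pairs labelled CD45- and CD45+ gave opposite signs for 4 member and class combinations, with each interval for counting error on its own side of 0. The difference between the pairs was not tested, since each group is 1 library. Saa3 in mesothelial-like cells had log2 ratios of Tom+ over Tom- of 0.52 in the pair labelled CD45- and -0.57 in the pair labelled CD45+. Saa3 in progenitor-like cells had -0.37 and 0.53, and without barcodes found in several libraries 0.056 and 1.37. Lcn2 in neutrophil-like cells had -0.44 and 0.61, on 21 and 23 Tom+ cells, and 1 cell held 42.1% of the Lcn2 UMIs of the library labelled CD45- Tom-. S100a8 in neutrophil-like cells had 0.069 and -0.41.

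Saa3 was also measured in barcodes under 500 genes, which were left out of the comparisons. Its level there was 96.5, 923, 60.6 and 759 CPM in the same order of libraries, over 126, 3762, 43 and 2949 barcodes. The higher values were those of the Tom- libraries, which shared the most barcodes, and were above the 36.6 and 42.1 CPM of B cell-like cells in those libraries.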

How the results depend on the processing

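The libraries have no replicates, so leaving one out was not possible. No paired analysis was possible because each group has 1 library, so that the groups compared share fewer than 2 replicate numbers. A fit of Tom status over the 4 libraries with the CD45 label as a block was not run, since the labels make these libraries different groups and not replicates. Of the values under 12 other settings 1832 stayed within the counting interval (levels and ratios) or within 1.5 times (counts), and 1046 moved. Of 50 log2 ratios, 20 took the other sign under a setting, in 52 of 573 values. Only 1 of these was past 2-fold as reported, that of S100a9 in Arg1-high-like cells of the CD45- pair, at 0.20 with marked doublets kept. Causes were not tested, except that settings with fewer UMIs, fewer cells or no minimum level change which genes are tested by construction. With the T and B cell level subtracted, fewer UMIs remain in the total, and Saa3 in Cxcl13 stromal-like cells was at 18239 to 30126 CPM. The number of members at least 2-fold above progenitor-like cells in every library was 1 in Cxcl13 stromal-like cells under all settings run. It went from 1 to 2 in mesothelial-like and from 0 to 1 in macrophage-like cells without the 2% of cells with most UMIs of the member. In Arg1-high-like cells it went from 0 to 1 at Leiden resolution 2, without barcodes found in several libraries, after thinning and with the mean CPM of single cells, and to 2 without the top 2% of cells. In monocyte-like cells it went from 2 to 0 without shared barcodes and to 1 with the T and B cell level subtracted. The number below fell from 2 to 1 in neutrophil-like cells without shared barcodes, after thinning, with the mean CPM and without the top 2% of cells.

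Over 6 classes, members at least 2-fold higher in Tom+ cells of the CD45- pair numbered 2, and 4 with the looser cell filter (500 genes, 20% mitochondrial) and 0 without the top 2% of cells. Those lower numbered 1, and 2 with doublets kept, the looser filter, resolution 2, 4000 variable genes or mean CPM, 3 without shared barcodes or after thinning, and 10 with no minimum level. In the CD45+ pair 1 was higher, and 0 with doublets kept, resolution 2, thinning, subtraction or without the top 2%, and 2 without shared barcodes. There 10 were lower, and 4 without shared barcodes, 3 after thinning and 1 without the top 2%. Listed genes higher in the CD45- pair numbered 7, and 11 with the looser filter, 15 with subtraction and 24 with no minimum; those lower numbered 12, and 25 after thinning or with no minimum. In the CD45+ pair 4 were higher, and 2 at resolution 2 or with 4000 variable genes, 8 after thinning, 19 with subtraction and 13 with no minimum. There 24 were lower, and 38 with subtraction and 48 with no minimum. These counts add up classes of unlike background. Of all genes, 1.03% to 5.35% by class were higher and 0.121% to 16% lower in the CD45- pair. In the CD45+ pair 1.14% to 9.4% were higher and 0.478% to 12.9% lower. The largest share was that of neutrophil-like cells each time, so the sums are read as a check on settings only.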

Other observations

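Outside the described classes, Lcn2 was highest in 16 and 12 epithelial-like cells of the Tom+ libraries, at 9167 and 7810 CPM. The leading genes of that cluster, Gpx5, Spag11b, Lcn8 and several defensins, are genes of the epididymis, which lies beside the gonadal fat. Lymphatic endothelial-like cells of the Tom+ libraries had Ptx3 at 290 and 267 CPM and Lcn2 at 163 and 127 CPM, and Hp at 1.45 and 0.65 CPM. In the library labelled CD45- Tom-, 3 blood endothelial-like cells of cluster 25 held 466 Hp UMIs, 460 of them in 1 cell. These cells had 6 of 6 adipocyte markers, summed to 28889 CPM, with Adipoq at 525 CPM.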
